A study of Mus musculus with 71 samples.

Results

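GLP, encoded by Ehmt1, was deleted in forebrain neurons of mice, and its loss in the cerebral cortex was measured on 8 of the 71 expression arrays of the series: the 4 titled as GLP cortex mutants and the 4 titled as their controls. The series profiled messenger RNA from 4 brain regions of mice lacking either GLP or its partner enzyme G9a, and polyribosome-bound RNA from striatal neurons. The GLP cortex mutants were Camk2a-Cre; GLPfl/fl mice, in which Cre recombinase excises a loxP-flanked stretch of both Ehmt1 copies. The labels name their controls as littermates matched for age and sex, spelled GLPfl/fl with no Cre named, and give no other agent or allele for either group. The design text puts the mice at 10 to 14 weeks of age and the extraction protocol at 12 weeks. For comparison, the same deletion was read in hippocampus, striatum and hypothalamus (4 mutant and 4 control arrays each), and the deletion of G9a (gene Ehmt2) by Camk2a-Cre; G9afl/fl in cortex (2 mutant and 2 control arrays). The Camk2a promoter drives Cre in excitatory forebrain neurons after birth, and RNA came from whole dissected cortex, so cells outside that Cre line's reach, such as glia and vessels, remained in every sample. The design text calls the replicates biological. The sources used here do not say whether regions were taken from the same animals.

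GLP and G9a work as a pair: the heterodimer places methyl groups on lysine 9 of histone H3, chiefly the dimethyl mark, which marks silent genes outside the most condensed chromatin. Each partner stabilises the other, and in many cell types loss of either lowers the mark across the genome. Loss of one EHMT1 copy in people causes Kleefstra syndrome, with intellectual disability. Genes of other tissues and of other developmental stages are among those the pair is known to keep silent.

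The 8 arrays resembled each other closely. Correlations over all genes ran from 0.9897 to 0.995 within a group and from 0.9853 to 0.99 between the groups. Values are log2 intensities, where 0 is the median probe set of an array and each unit is a doubling. Markers of cortical projection neurons differed in how they set the control cortex apart. Tbr1, a transcription factor of deep-layer neurons, averaged 6.05 in GLP cortex controls, 3.79 in hippocampus, 2.41 in striatum and 0.48 in hypothalamus, and Cux2, of upper layers, was also highest in cortex (4.76 against 3.42, 2.60 and 4.17). Slc17a7, the vesicular glutamate transporter, stood at 5.24 in cortex and 5.15 in hippocampus, and Neurod6 (4.39 against 7.02), Fezf2 (3.46 against 4.20) and Camk2a (6.90 against 7.60) were lower in cortex than in hippocampus. All 6 genes were higher in cortex than in striatum and hypothalamus. Xist, the X-inactivation RNA, lay between 5.17 and 6.29 in all 8 arrays, and the Y-linked Eif2s3y between -2.57 and -2.32, the pattern of females. The 4 G9a cortex arrays showed the opposite pattern (Xist -2.23 to -1.07, Eif2s3y 4.14 to 4.96), so deletion and sex cannot be told apart between the cortices.

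The targeted transcript was lower in every mutant. Ehmt1 read 1.95, 2.08, 1.99 and 2.11 in mutants 1 to 4 and 2.96, 2.74, 2.92 and 2.57 in controls 1 to 4. No mutant array reached the lowest control. The log2 change was -0.76 (SE 0.12, 4 against 4 arrays, adjusted p = 6.19e-06 by limma with Benjamini-Hochberg adjustment), which left 58.9% of the control intensity. The sources used here do not place the Ehmt1 probe set relative to the excised stretch. In whole cortex, fewer cells expressing a gene and less of its RNA per cell cannot be told apart, here and in all values that follow. Ehmt2, the partner gene, stayed at 5.22 against 5.33, a change of -0.11 (SE 0.14) that did not pass the test.

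Loss of GLP in cortex raised many more genes than it lowered. Of 11585 genes tested, 153 rose (1.32%) and 26 fell (0.224%), so 1.55% of tested genes changed in all. The 4 mutant arrays lay wholly above the 4 controls for 147 of the 153 rises, and wholly below for 25 of the 26 falls, against 5.85% and 4.19% of all tested genes (10% in either direction). The median rise was 1.02 on the log2 scale and the median fall -0.66, against a median change of 0.0023 over all genes tested and a median SE of 0.13. Rises over 1 log2 unit numbered 79 and those over 2 units 27, while 4 falls went past -1. In 52 of the 153 rises the control mean lay below the array median. Such a gene was tested only where at least 4 of the 8 arrays exceeded the median, so the filter favoured genes that were higher in mutants, and counts among tested members of a list carry that choice. Among the 11585 tested genes, 158 had a control mean below the median. When a gene's control mean had to exceed the median, 93 rose and 23 fell, and requiring a log2 value over 2 on 4 of the 8 arrays left 63 and 16. The count also moved with how the spread was estimated: 365 genes were called with the spread taken from the 8 cortex arrays alone and 863 with arrays weighted by quality.

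**Figure D1:**
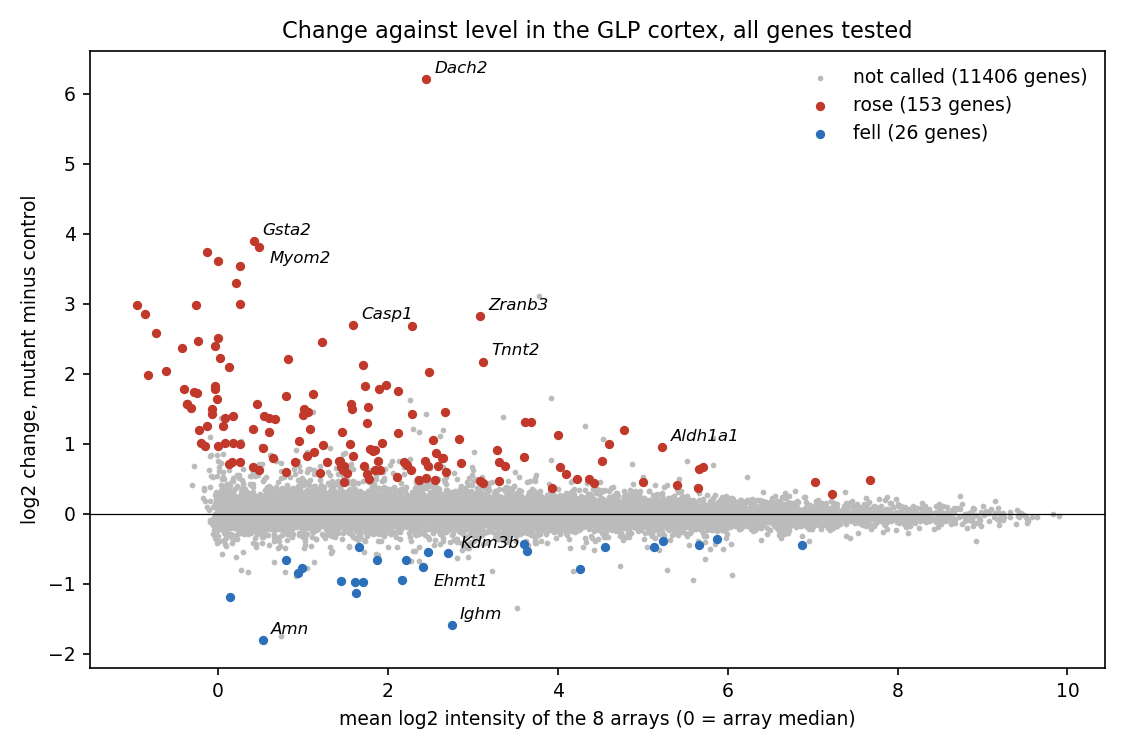
Each point is 1 of 11585 tested genes, with its mean log2 intensity over the 8 arrays on the horizontal axis (0 is the array median) and its log2 change, mutant minus control, on the vertical axis. The 153 genes that rose (red) spread from low to high levels and reach 6.21 at Dach2, and the 26 that fell (blue) reach -1.80 at Amn.

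Dach2 changed most. It encodes a transcriptional cofactor of the dachshund family, known from eye, limb and muscle development. Dach2 read 5.57, 5.52, 5.65 and 5.49 in mutants 1 to 4 against -1.47, -0.69, -0.16 and -0.29 in controls 1 to 4. All controls were below the array median and all mutants more than 5 units above it. The change was 6.21 (SE 0.22, adjusted p = 2.44e-28 by limma), or at least 47.1-fold. Here and below, "at least" sets the brighter group's mean against the array median, because the dimmer group lay below it.

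Striated muscle genes were among the strong rises. Of 38 listed and measured, 18 were tested and 8 rose, none fell, and the median change was 1.17 over the tested members and 0.43 over all 38. Of all tested genes 1.32% rose. Myom2, Ttn and Myh8 had control means below the array median and passed the filter through the mutants. Myom2, a protein of the sarcomere's M-band, read 2.39, 2.54, 2.38 and 2.26 in mutants against -1.34, -1.47, -2.18 and -0.70 in controls, a change of 3.81 (SE 0.39, at least 5.25-fold). Tnnt2, the cardiac troponin T of the thin filament, read 4.42, 4.05, 4.19 and 4.19 in mutants against 2.01, 1.48, 2.10 and 2.57 in controls. Its controls were above the array median, so its change of 2.17 (SE 0.24) is a measured 4.51-fold rise (adjusted p = 3.19e-09 by limma). Ttn, the giant spring of the sarcomere, rose by 2.39 (SE 0.38). Myh8, a perinatal myosin heavy chain, rose by 2.09 (SE 0.30), and Myh7, the slow and cardiac myosin heavy chain, by 1.13 (SE 0.22, 2.18-fold). Pgam2, the muscle form of a glycolytic mutase, rose by 1.45 (SE 0.23, 2.73-fold). Outside the list, Sln, the small membrane protein that restrains the muscle calcium pump, went from a control mean of -1.74 to a mutant mean of 1.24. Among members that were not tested or not called, Ckm, the muscle creatine kinase, stood at -1.98 in both groups, and Des (desmin), Mb (myoglobin), Actc1 (cardiac actin), Tnnt3 and Atp2a1 also lay below the array median in both. Acta1, the skeletal muscle actin, was at 2.68 against 2.28 and Myl4, an atrial and embryonic light chain, at 4.75 against 3.10, without passing the test.

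Genes of liver, gut and secretory epithelia also rose, while most members of their lists stayed below the low-value filter. Afp, the fetal liver's main plasma protein, read 1.95, 1.75, 2.01 and 1.77 in mutants against -1.13, -1.43, -1.54 and -1.63 in controls, a change of 3.30 (SE 0.31, at least 3.65-fold). All mutants lay above the array median and all controls below it. Tdo2, the liver enzyme that opens the ring of tryptophan, went from a control mean of -2.45 to 0.54 (2.98, SE 0.33), a rise of at least 1.45-fold whose call was lost when lower values were raised to the array median. Fbp1, the gluconeogenic bisphosphatase, rose by 1.74 (SE 0.29). All 3 had control means below the array median and passed the low-value filter through the mutants. They were 3 rises among 6 tested of 18 measured liver and plasma protein genes, while 1.32% of all tested genes rose. The median change over all 18 was -0.04. Alb (albumin), Apoa1, Fga and Ahsg, the most abundant liver products, lay below the array median in both groups. Of 24 measured epithelial genes 8 were tested. Of these 3 rose and 2 fell, against 1.32% and 0.224% of all tested genes. The median change was -0.06 over the 8 and 0.01 over all 24, and the 3 rises passed the filter through the mutants. The rises were Cst12, a secreted cystatin, by 3.61 (SE 0.32), Defb1, an antimicrobial peptide, by 3.54 (SE 0.54), and Olfm4, a secreted glycoprotein of crypts and glands, by 2.22 (SE 0.23). Gkn1, a stomach mucosal peptide, rose by 2.99 (SE 0.28), Serpinb5, an epithelial serpin, by 2.58 (SE 0.30), and Wfdc18, a secreted protease inhibitor-like protein, by 2.69 (SE 0.29). The keratins Krt7, Krt8, Krt18 and Krt19 and the adhesion gene Cdh1, which define simple epithelia, were below the array median in both groups.

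Enzymes that handle glutathione and foreign compounds gave 5 rises and no fall among 17 tested genes, while 1.32% of all tested genes rose. The median change was 0.19 over the 17 and 0.08 over all 29 measured. Gsta2 and Aldh3a1 had control means below the array median and passed the low-value filter through the mutants. Gsta2, an alpha class glutathione transferase, read 2.45, 2.39, 2.23 and 2.44 in mutants against -1.73, -1.25, -1.57 and -1.51 in controls, a change of 3.90 (SE 0.38, at least 5.20-fold). Aldh3a1, an aldehyde dehydrogenase best known from cornea, rose by 2.47 (SE 0.37), with control 4 at -0.38 and the other controls between -1.88 and -1.78. Aldh1a1, which makes retinoic acid, was well above the array median in both groups and rose 1.93-fold (0.95, SE 0.18). Gstm7 rose 2.69-fold (1.43, SE 0.15) and the carboxylesterase Ces5a 1.69-fold (0.75, SE 0.12). Other transferases of the list, Gstm1, Gstm5, Gstp1 and Gsta4, differed by 0.06 or less in size.

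The remaining large rises included 4 receptor, channel and calcium-binding genes, grouped here after their values were seen. Gpr50, an orphan receptor related to the melatonin receptors, read 1.78, 1.50, 1.87 and 1.85 in mutants against -1.62, -2.02, -1.90 and -2.43 in controls. The change was 3.74 (SE 0.35, at least 3.36-fold), with no overlap. Gabra6, the GABA-A receptor subunit of cerebellar granule cells, rose by 2.85 (SE 0.37), although mutant 3 stood at 0.02, barely above the array median. Scn7a, a sodium-sensing channel, rose by 2.45 (SE 0.33) from a control mean of 0.01, with controls 1 and 3 below the array median. Cabp5, a calcium-binding protein of retina, rose by 2.36 (SE 0.34). Among 26 tested voltage-gated potassium channel genes only Kcna6 rose, against 1.32% of all tested genes. It went from between 2.03 and 2.31 in controls to between 2.67 and 2.74 in mutants (0.51, SE 0.11, adjusted p = 0.00147 by limma). That rise rests on 1 probe set: averaged over all probe sets of Kcna6 the change was -0.01. Of 11 GABA-A and GABA-B receptor genes tested in their own list, which does not hold Gabra6, limma called 0, also at an unadjusted p under 0.05. The shares of all tested genes were 1.55% and 6.81%.

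Zranb3 and Casp1 gave the largest rises among genes whose control mean was above the array median. Zranb3, an annealing helicase of stalled replication forks, read 4.63, 4.57, 4.49 and 4.33 in mutants against 1.37, 1.68, 1.59 and 2.08 in controls. It rose 7.08-fold (2.82, SE 0.15, adjusted p = 6.15e-21 by limma), and its lowest mutant stood above its highest control by more than 2 units. Casp1, the protease that matures interleukin-1 beta, read 2.81, 3.04, 2.89 and 3.01 in mutants against -0.03, 0.19, -0.35 and 1.18 in controls, a 6.46-fold rise (2.69, SE 0.30). Controls 1 and 3 were below the array median, and control 4 was the highest control, still 1.6 units under the lowest mutant. Il1b, which encodes that cytokine, rose by 0.97 (SE 0.17), from a control mean of -0.64 to 0.33. The other tested members of the list, Pycard, Il18, Il33 and Il1r1, did not pass the test, and Nlrp3, Aim2 and Casp4 lay below the array median in both groups. Among 16 tested interferon-stimulated and antigen processing genes 1 rose, against 1.32% of all tested genes. It was Ifitm2, which restricts virus entry, with a change of 1.17 (SE 0.17) from a control mean of 0.02. Ifitm1 and Ifitm3 had changes of 0.20 and 0.04. Hjv, the iron-regulating co-receptor for bone morphogenetic proteins, completed the 20 largest rises with 2.51 (SE 0.37).

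**Figure D2:**
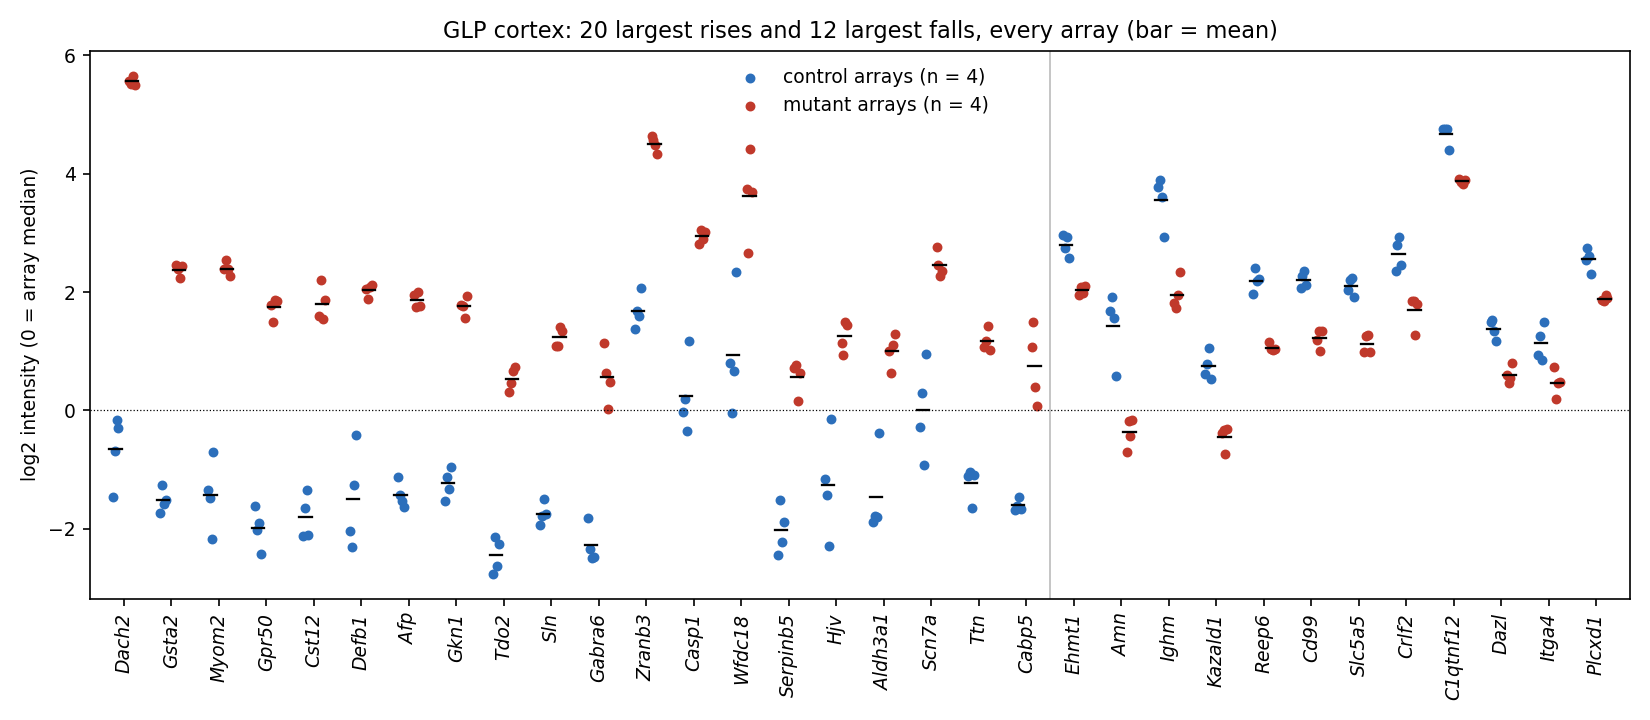
Points are the log2 intensities (0 is the array median) of the 4 control arrays (blue) and 4 mutant arrays (red), and bars are group means, for the 20 largest rises and the 12 largest falls. The groups do not overlap for any gene shown, which the choice of genes required; 16 of the 20 rises start from a control mean below 0, while all 12 falls start above it.

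The falls were smaller. Amn, the membrane anchor of cubilin in kidney and gut, fell furthest, from 1.68, 1.92, 1.55 and 0.58 in controls to -0.70, -0.18, -0.43 and -0.16 in mutants (-1.80, SE 0.24, adjusted p = 5.59e-07 by limma). Every mutant was below the array median and every control above it. Ighm, the immunoglobulin mu heavy chain, read 1.82, 1.72, 1.96 and 2.33 in mutants against 3.78, 3.89, 3.61 and 2.93 in controls, a fall to 33.2% of control (-1.59, SE 0.21). Control 4 was nearest to the mutants. Kazald1, a secreted protein with insulin-like growth factor binding homology, fell by 1.19 (SE 0.19) and Reep6, an endoplasmic reticulum shaping protein of photoreceptors, by 1.13 (SE 0.18). Slc5a5, the thyroid's sodium iodide symporter, stood at 50.9% of control and the surface protein Cd99 at 50.8%. Crlf2, a cytokine receptor chain for thymic stromal lymphopoietin, stood at 51.9%. C1qtnf12, a secreted adipokine, was at 57.8%, with controls 1 to 3 at 4.75, control 4 at 4.40 and mutants between 3.83 and 3.90. Plcxd1, which carries a phospholipase C-like domain, was at 63.2% of control. Dazl, a germ cell RNA-binding protein, was at 58.5% (-0.77, SE 0.19, adjusted p = 0.0173 by limma), and its call was lost without mutant 2, mutant 3, control 1 or control 2. Itga4, the integrin alpha-4 chain, was at 63.1% (-0.66, SE 0.17, adjusted p = 0.0165 by limma), a call lost without mutant 2, control 2 or control 4. Dazl was the only called gene among 4 tested germ cell and meiosis genes, while 0.224% of all tested genes fell. Of the 32 measured, 28 did not reach the low-value filter, Nxf3 (2.25, SE 0.24) included.

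Among the enzymes and readers of the histone mark, 2 demethylases for the same residue fell. Of 26 tested genes none rose and 3 fell (median change -0.02), the deleted Ehmt1 among them, against 1.32% and 0.224% of all tested genes. Kdm3b, which removes mono- and dimethyl groups from lysine 9, read 2.28, 2.51, 2.49 and 2.48 in mutants against 3.03, 2.86, 3.03 and 3.05 in controls (-0.55, SE 0.10, adjusted p = 0.000217 by limma). Its relative Kdm3a read 3.29, 3.40, 3.38 and 3.48 against 3.80, 3.88, 3.92 and 3.69 (-0.44, SE 0.09, adjusted p = 0.00251 by limma). Neither gene's groups overlapped, which also held for 10% of all tested genes. The third member of that family, Jmjd1c, differed by -0.04 (SE 0.10). Kdm4a stood at -0.48 (SE 0.18) without passing the test. The other writers, Setdb1, Setdb2, Prdm2 and Suv39h2, and the readers Cbx1, Cbx5 and Mphosph8 differed by 0.19 or less in size and were not called. Wiz and Zfp644, zinc finger partners of the GLP-G9a complex, differed by 0.06 and 0.16.

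Genes that define the cortex and its synapses gave no calls in limma. None of 14 upper-layer genes (median -0.05) and none of 20 deep-layer genes (median -0.07) was called, although Cux2, Fezf2, Bcl11b and Tbr1 were all well above the array median. The same held for 21 interneuron genes (median 0.01), 31 glutamate receptor and scaffold genes (median -0.05), 30 synaptic vesicle genes (median -0.06) and 18 immediate early genes (median -0.03). At an unadjusted p under 0.05, limma picked out 0 of the 14, 0 of the 20, 3 of the 21, 2 of the 31, 1 of the 30 and 0 of the 18, against 6.81% of all genes tested. Glutamate receptor genes lay between -0.35 (Gria3) and 0.15 (Grm2). Among immediate early genes, Fos stood at 0.42 (SE 0.37) and Bdnf at -0.48 (SE 0.41), both close to their error. With 1.55% of all tested genes called, 0 calls in lists of this size does not set them apart.

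**Figure D3:**
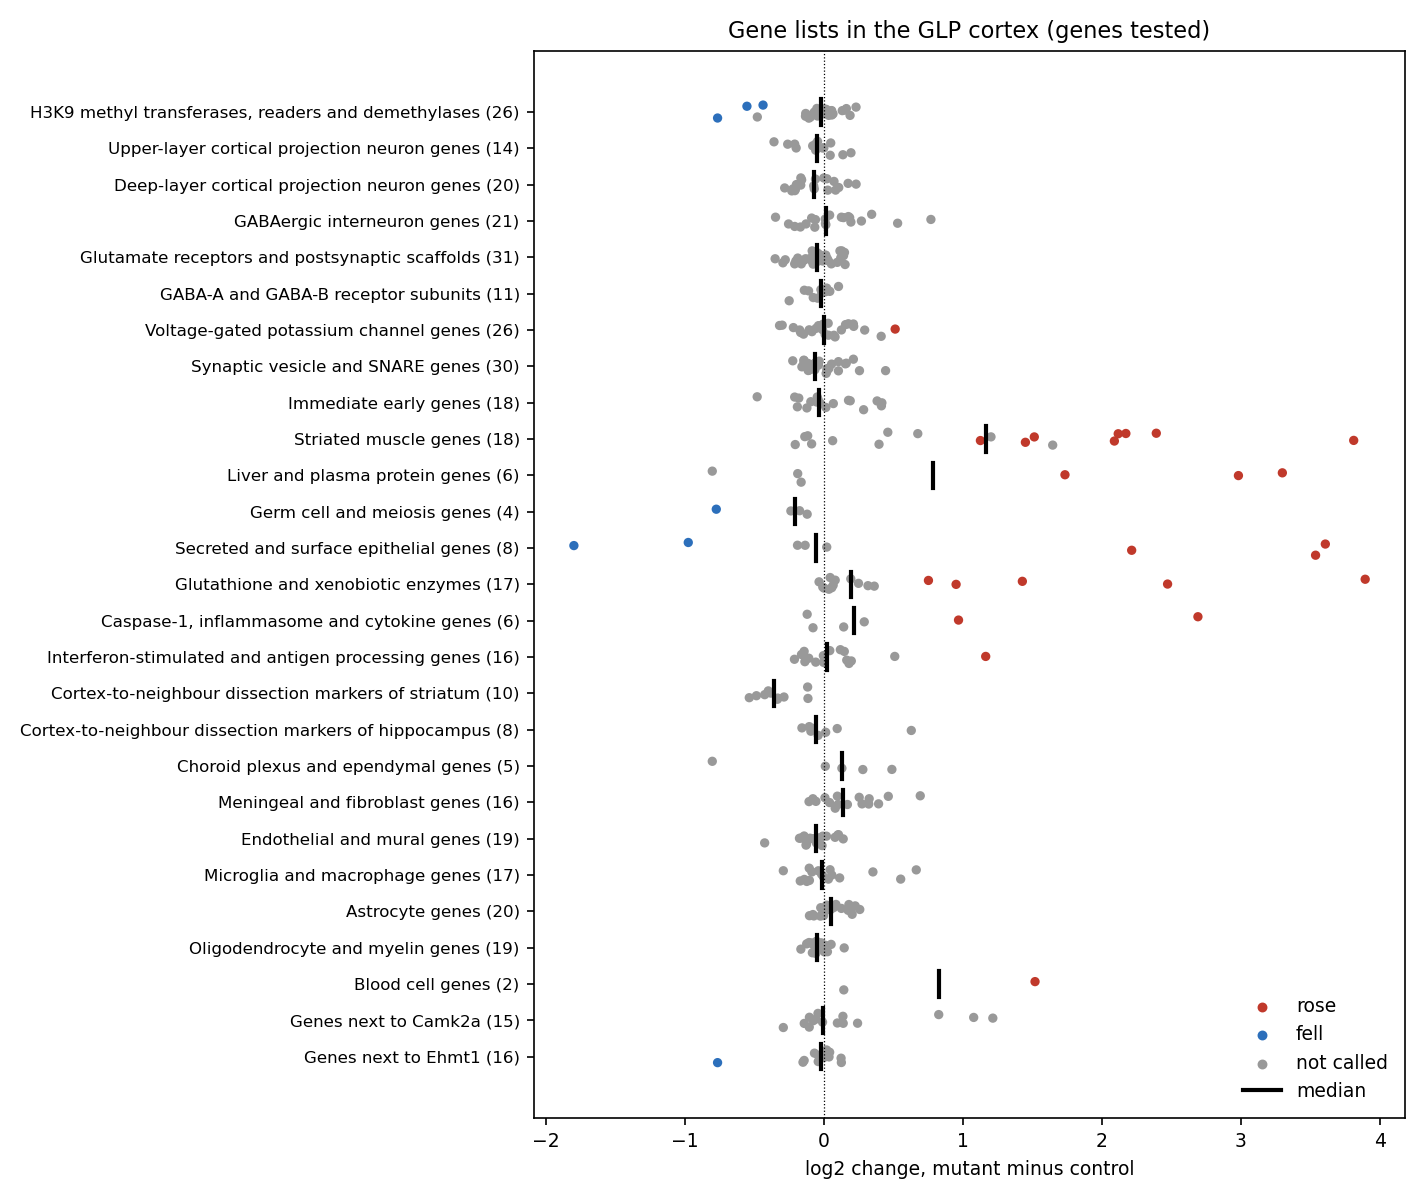
Each point is a tested gene of 1 of 27 lists, at its log2 change (mutant minus control) on the horizontal axis, with the number tested in brackets and the median as a black bar. Red points rose, blue points fell and grey points were not called; the muscle list has the highest median, 1.17, and the lists of cortical neurons and synapses lie around 0.

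Markers of other cells and of neighbouring tissue were measured alongside. Their part in the results was not tested. By limma 0 of 17 tested microglial genes, 0 of 20 astrocyte, 0 of 19 oligodendrocyte, 0 of 19 endothelial and mural, 0 of 16 meningeal and 0 of 5 choroid plexus genes were called (2, 0, 0, 0, 1 and 1 at an unadjusted p under 0.05). Of all tested genes 1.55% were called and 6.81% had an unadjusted p under 0.05, so 0 calls in lists of this size does not set them apart. Summed linear levels of the whole lists, in multiples of the array median, ran from 331 to 403 in mutants and from 345 to 422 in controls for microglia, and from 1817 to 1903 against 1797 to 1971 for astrocytes. The sums were 250 to 355 against 231 to 370 for meninges, and 34.9 to 54.2 against 35.6 to 149.6 for choroid plexus, where 13 of 19 markers were below the median on all 8 arrays. Oligodendrocyte sums were 1614 to 1842 in mutants and 1716 to 1976 in controls. All 10 striatal markers were lower in mutants, with a median change of -0.36 and 0 calls by limma (4 at an unadjusted p under 0.05). Their sums ran from 165 to 223 in mutants and from 215 to 293 in controls. The blood cell list had sums of 4.12 to 4.75 in controls and 7.73 to 8.55 in mutants. Of its 9 genes 7 lay below the array median on all 8 arrays, haemoglobin Hba-a1, Cd3e and Cd79a among them. Bank1, a B-cell scaffold protein, was its 1 called member and made up most of the difference between the sums. It read 2.58, 2.43, 2.62 and 2.47 in mutants against 0.99, 0.91, 1.20 and 0.93 in controls, a 2.87-fold rise (1.52, SE 0.30). Among 61 tested genes within 50 positions either side of Ehmt1 and 65 around Camk2a, limma called 0, against 1.55% of all tested genes. Of 15 tested genes listed as next to Camk2a, 4 had an unadjusted p under 0.05, against 6.81% of all tested genes, with changes up to 1.22.

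Promoter sequences of the named genes were read as a description. From RefSeq on GRCm38.p6, 24 of the 33 genes (the 20 rises, the 12 falls and Ehmt2) had an entry, and the 250 bases before the start were searched. The CG pair, the target of DNA methylation, occurred a median of 5 times in 147 promoters of genes that rose, 17 times in 21 promoters of genes that fell and 15 times in 12254 promoters of tested genes. Over all 32851 promoters in the table the median was 6. For rises that started below the array median it was 4 and for rises that started above it 6. The letters CACGTG, an E-box that reads alike on both strands, occurred in 3.4% of promoters of risen genes, 14.3% of fallen genes, 8.31% of tested genes and 6.02% of all promoters. GCGGGAA, searched on both strands, occurred in 4.08%, 4.76%, 6.63% and 3.82%. These shares describe the genes and were not tested. The 6 shown are examples, printed 5′ to 3′ with CG in capitals, and do not cover the whole range. Dach2 (chrX:113298006-113298255, plus strand, 13 CG, the later of its 2 entries), Gpr50 (chrX:71663417-71663666, plus, 5 CG), Afp (chr5:90490464-90490713, plus, 1 CG) and Casp1 (chr9:5298267-5298516, plus, 1 CG, which is part of a CACGTG) rose. The other named rises ran from 0 CG (Cabp5) to 14 (1 entry of Zranb3). Crlf2 (chr5:109558994-109559243, minus, 24 CG) and Dazl (chr17:50293621-50293870, minus, 20 CG) fell. Other named falls with an entry had 26 CG (Ehmt1, the deleted gene), 21 (Slc5a5), 17 and 12 (Kazald1), 11 (Amn), 6 (Itga4), and 0 and 13 (Plcxd1).
Dach2: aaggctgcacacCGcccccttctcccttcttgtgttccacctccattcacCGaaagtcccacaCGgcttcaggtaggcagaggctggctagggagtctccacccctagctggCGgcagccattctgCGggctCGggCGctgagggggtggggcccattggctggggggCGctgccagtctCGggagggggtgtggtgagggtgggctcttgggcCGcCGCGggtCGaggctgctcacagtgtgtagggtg
Gpr50: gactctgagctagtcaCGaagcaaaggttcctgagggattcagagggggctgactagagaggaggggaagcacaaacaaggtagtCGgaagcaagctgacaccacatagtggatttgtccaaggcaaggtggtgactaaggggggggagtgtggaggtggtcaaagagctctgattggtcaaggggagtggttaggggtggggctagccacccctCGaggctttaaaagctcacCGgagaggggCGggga
Afp: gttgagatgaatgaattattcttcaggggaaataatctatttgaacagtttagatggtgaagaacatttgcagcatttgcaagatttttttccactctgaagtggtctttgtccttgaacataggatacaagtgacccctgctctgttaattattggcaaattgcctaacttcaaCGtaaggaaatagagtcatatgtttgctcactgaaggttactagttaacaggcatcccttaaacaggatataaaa
Casp1: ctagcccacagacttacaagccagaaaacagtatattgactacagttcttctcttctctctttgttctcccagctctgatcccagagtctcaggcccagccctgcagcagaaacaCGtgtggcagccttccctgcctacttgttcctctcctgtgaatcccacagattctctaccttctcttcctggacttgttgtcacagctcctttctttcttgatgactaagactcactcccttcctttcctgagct
Crlf2: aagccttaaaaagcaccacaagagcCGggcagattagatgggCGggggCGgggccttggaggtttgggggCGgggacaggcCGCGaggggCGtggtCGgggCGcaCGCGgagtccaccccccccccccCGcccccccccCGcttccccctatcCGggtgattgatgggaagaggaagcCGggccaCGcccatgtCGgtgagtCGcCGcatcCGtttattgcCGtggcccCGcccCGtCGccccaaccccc
Dazl: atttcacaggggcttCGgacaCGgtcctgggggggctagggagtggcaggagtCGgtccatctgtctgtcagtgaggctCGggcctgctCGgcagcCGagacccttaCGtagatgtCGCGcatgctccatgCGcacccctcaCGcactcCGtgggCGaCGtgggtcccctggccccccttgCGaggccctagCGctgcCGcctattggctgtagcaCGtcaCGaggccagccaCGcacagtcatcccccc

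Most genes called in the cortex lacking G9a were also called in the cortex lacking GLP. The G9a comparison has 2 mutant and 2 control arrays for G9a, and its arrays showed the male pattern. Mutants of both kinds carried Camk2a-Cre, and the labels name no Cre for the GLP controls. Cre and deletion therefore cannot be told apart in the GLP comparison, and a part of Cre in the sharing was not tested. In the G9a cortex 74 genes rose (0.634%) and 12 fell (0.103%) of 11675 tested, 0.737% in all. Of genes tested in both cortices, 60 rose in both, 41.4% of the GLP rises and 93.8% of the G9a rises. Falls in both numbered 8, 30.8% of those in GLP and 72.7% of those in G9a, and no gene was called in opposite directions. Of the 179 genes called on loss of GLP, 171 had the same sign on loss of G9a. Some named genes had close values on loss of GLP and of G9a: Dach2 6.21 and 6.03, Afp 3.30 and 3.37, Gabra6 2.85 and 2.88, Tdo2 2.98 and 3.05, Amn -1.80 and -2.05, C1qtnf12 -0.79 and -0.82. Others lay further apart: Ttn stood at 2.39 and 1.14, Serpinb5 at 2.58 and 1.75, Hjv at 2.51 and 3.28, Kazald1 at -1.19 and -0.79 and Itga4 at -0.66 and -0.31. Ttn, Kazald1 and Itga4 were not called on loss of G9a, and Serpinb5 was below the filter there. Among the rises Zranb3 and Cst12 had the higher values on loss of G9a (3.41 and 3.99), Gsta2 and Gpr50 on loss of GLP (3.90 and 3.74 against 3.03 and 2.92), without passing the test of the difference.

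In limma's direct test of GLP loss against G9a loss, the 2 changes differed for 2 of 11748 genes (0.017%), 1 in each direction (0.00851% each), and for 119 genes at an unadjusted p under 0.05. Cap1, an actin-monomer binding protein, differed by -1.70 (SE 0.19, adjusted p = 5.65e-08 by limma), as it rose by 1.56 in the G9a cortex and changed by -0.14 (SE 0.11) in the GLP cortex. Ehmt2, the gene deleted in the other mice, differed by 1.65 (SE 0.24, adjusted p = 3.49e-05 by limma), having fallen by 1.76 there. Ehmt1 itself was next in rank, lowered by 0.76 in the GLP cortex and at 0.07 in the G9a cortex, but its difference of -0.84 (SE 0.20) had an adjusted p of 0.445 by limma. Clone names left out, Neb and Arhgap42 followed without passing. Neb stood at 1.98 in the GLP cortex, where it was below the filter, and 3.42 in the G9a cortex. Arhgap42 stood at -0.11 and 0.48. Of the 32 genes of largest rise or fall, 0 passed after adjustment. With 2 against 2 arrays in the G9a cortex the median SE of a difference was 0.23, so the design does not show that the changes are equal.

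**Figure D4:**
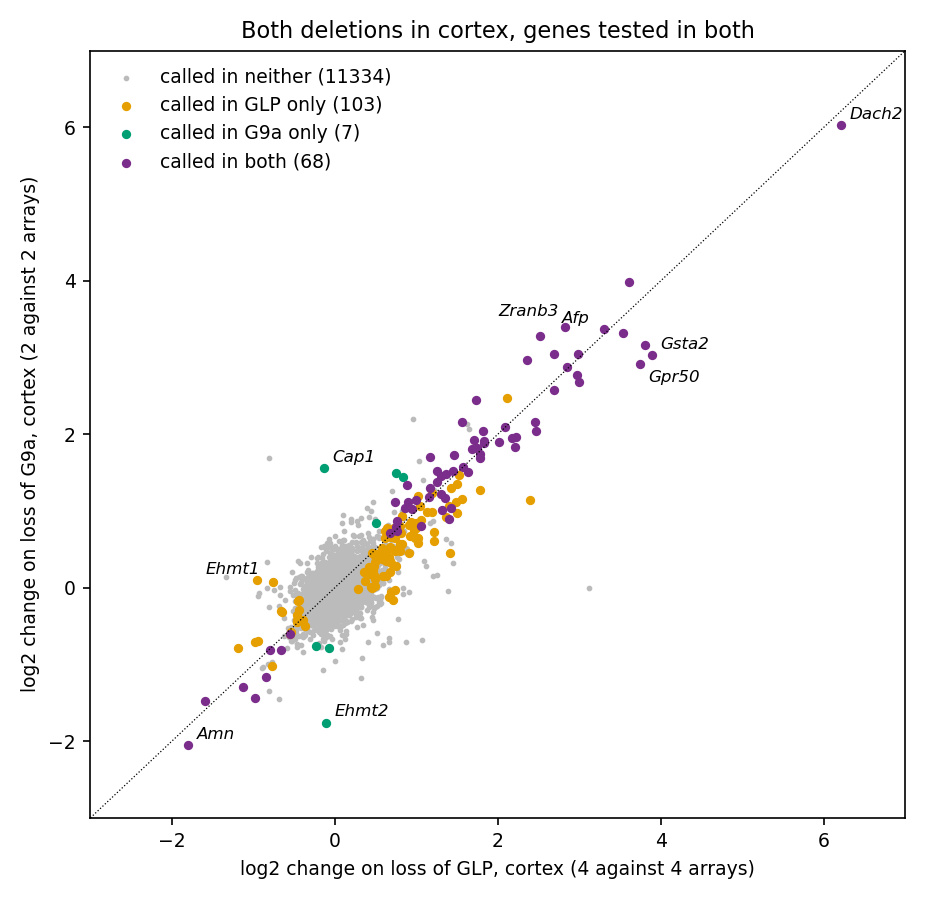
Each point is a gene tested in both cortices, with its log2 change on loss of GLP on the horizontal axis (4 against 4 arrays) and on loss of G9a on the vertical axis (2 against 2 arrays); the dotted line marks equal changes. The 68 genes called in both (purple) lie close to the line, 103 were called for GLP only and 7 for G9a only, and Cap1 and Ehmt2 stand off it.

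Some cortical rises were also called in every other region, and others differed by region. The deleted transcript itself was not lowered alike in the GLP regions. Ehmt1 stood at 58.9% of control in cortex, 67.0% in hippocampus, 72.6% in striatum and 89.8% in hypothalamus, where it was not called. Whether this bears on differences between regions was not tested. After loss of GLP, 2.08% of tested genes were called in hippocampus (1.76% up, 0.317% down), 1.67% in striatum (1.16% up, 0.511% down) and 1.02% in hypothalamus (0.832% up, 0.191% down). After loss of G9a, 2.76% were called in hippocampus (2.28% up, 0.477% down), 3.03% in striatum (1.88% up, 1.15% down) and 2.33% in hypothalamus (1.59% up, 0.741% down). Of the cortical rises tested in both, 54 also rose in hippocampus (43.9% of the cortical and 36.5% of the hippocampal rises), 52 in striatum (46.0% and 43.3%) and 43 in hypothalamus (35.5% and 52.4%). Over the 7 other whole-tissue comparisons, GLP and G9a together, 7 of the 153 cortical rises were called in every one: Dach2, Tnnt2, Olfm4, Gstm7, Ces5a, Ifitm2 and Serpinb1b. They were picked out after their values were seen. Amn was the 1 fall called in all 7. Called in no other comparison were 35 rises and 5 falls; being called in 1 region alone does not show a difference between regions.

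The test of the difference between cortex and hippocampus passed for 36 of 12031 genes (0.299%), 13 with the higher change in cortex (0.108%) and 23 with the higher change in hippocampus (0.191%). At an unadjusted p under 0.05 there were 359. The count was 23 without control 1 of the cortex or control 2 of the hippocampus, and 57 without control 1 of the hippocampus. The smallest p belonged to Zranb3, which rose by 2.82 in cortex and 0.65 in hippocampus (difference 2.18, SE 0.21). Gkn1 (2.99 against 0.38), Afp (3.30 against 0.48), Serpinb5 (2.58 against -0.04), Cabp5 (2.36 against -0.11) and Wfdc18 (2.69 against 0.64) had larger changes in cortex. C1qtnf12 fell by 0.79 in cortex and stood at 0.17 in hippocampus, and Ighm fell by 1.59 in cortex and stood at -0.31 in hippocampus. The keratins Krt79 and Krt2 went the other way, with changes of 2.14 and 1.60 in hippocampus and -0.09 and 0.10 in cortex, where both were below the array median. Of the 32 genes of largest rise or fall 8 differed between these regions. They were chosen for their change in cortex, which favours a larger change there, so this count describes only these genes. Gkn1, Afp, Serpinb5 and Cabp5 were below the filter in hippocampus and were tested through cortex, while Krt79 and Krt2 were tested through hippocampus.

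Against striatum, 23 of 11947 genes differed (0.193%), 11 with the higher change in cortex (0.0921%) and 12 with the higher change in striatum (0.1%). The count was 45 with no filter, 10 with log2 above 2, 69 with lower values raised to the array median and 60 with array weights. Ttn rose by 6.47 in striatum and 2.39 in cortex (difference -4.07, SE 0.54), and Afp by 6.34 and 3.30 (difference -3.04, SE 0.44), so these 2 genes of other tissues rose in cortex but further in striatum. Corin, a heart protease that processes natriuretic peptide, rose by 5.46 in striatum and 2.04 in cortex. Cd2, a T-cell adhesion protein, Pdlim3, a muscle Z-disc protein, and Hacd2, a fatty acid elongation enzyme, had changes of 3.11, 2.16 and 1.04 in striatum and stood between -0.02 and 0.19 in cortex. Gpr50 went the other way, at 3.74 in cortex and 0.30 in striatum. Gabra6 (2.85 against 0.08), Hjv (2.51 against 0.25), Sln (2.98 against 0.97) and Gkn1 (2.99 against 1.19) also had larger changes in cortex. These genes and Gpr50 had been chosen for their rise in cortex, which favours a larger change there. They were below the filter in striatum and were tested through cortex, while Cd2 and Pdlim3 were tested through striatum. Dach2 (6.21 and 5.99), Defb1 (3.54 and 3.15) and Amn (-1.80 and -1.91) differed between cortex and striatum by less than the SE of the difference. Across the 4 regions Gpr50 stood at 3.74 in cortex and 3.70 in hippocampus but 0.30 in striatum and 0.62 in hypothalamus, while Afp stood high in cortex and striatum and low in hippocampus and hypothalamus (0.48 and 0.32).

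**Figure D5:**
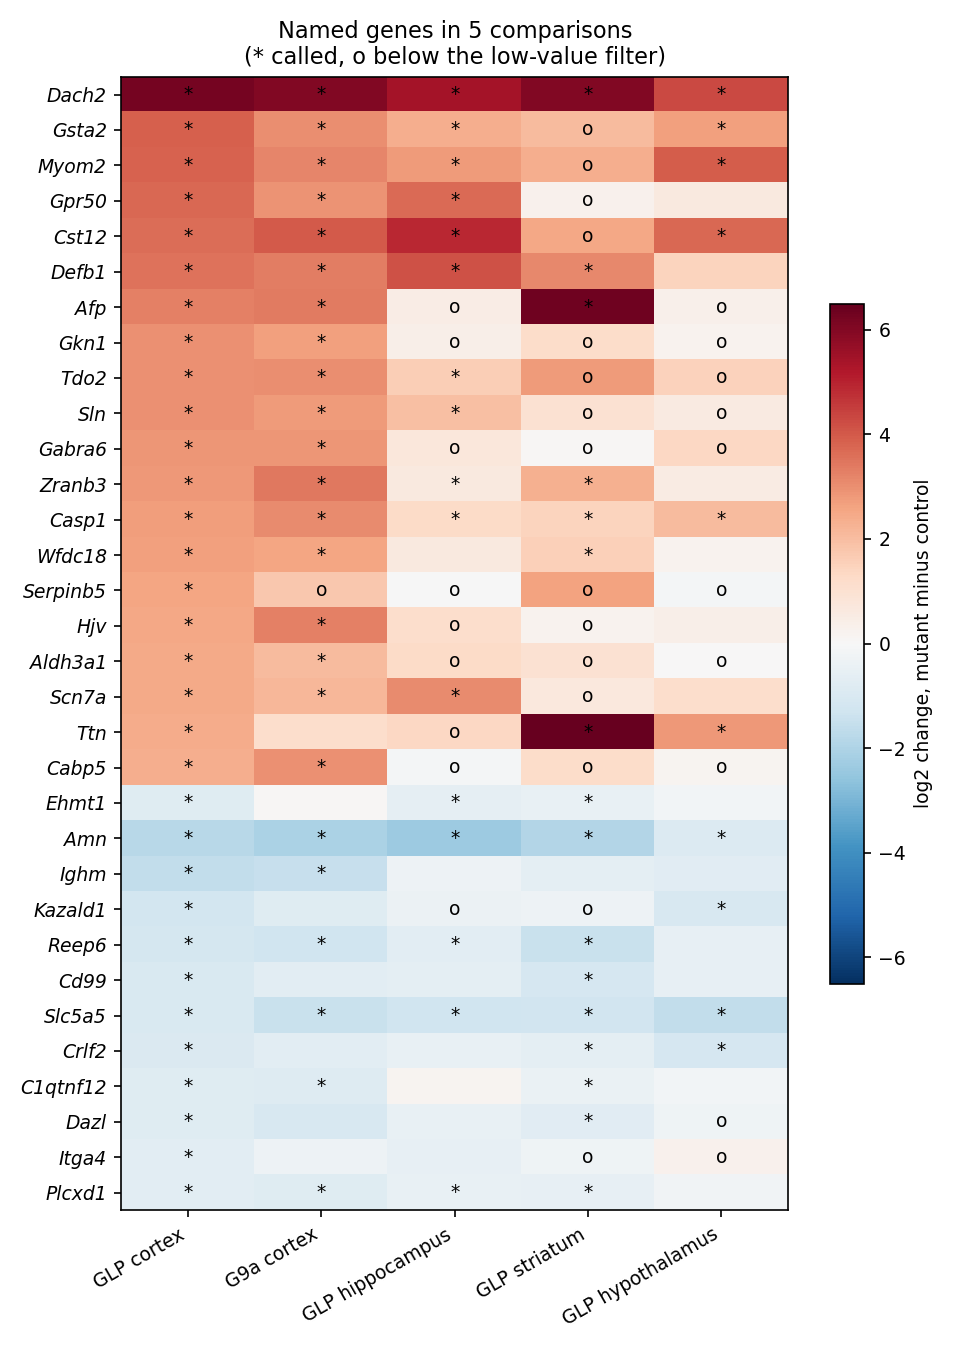
Rows are the 20 largest rises and 12 largest falls of the GLP cortex, columns are 5 comparisons, and colour is the log2 change, mutant minus control (red higher, blue lower). A star marks a gene called in that comparison and a circle one below the low-value filter there; Dach2, Casp1, Amn and Slc5a5 carry stars in all 5 columns, while Gpr50, Afp and Ttn differ by region.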

How the data were processed

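Per the labels, total RNA from whole cortex was amplified in 2 cycles and hybridised to Affymetrix arrays. The authors deposited linear intensities, made with GCRMA per the submitters' processing notes, with its version not given in the sources used here. These values had a median of 1 on each of the 8 arrays and were converted to log2, with no floor. Of 45101 probe sets, 34945 carried 1 gene symbol, and the brightest probe set on average stood for each of 18193 genes. Genes above 0 on at least 4 of the 8 arrays were tested with limma 3.58.1 (R 4.3.3) as group means over 59 whole-tissue arrays in 16 groups, with an intensity trend and Benjamini-Hochberg adjustment at 0.05 per comparison. On simulated data for the GLP cortex (11514 genes, 200 changed) the test recovered 95% of changes of 1 log2 unit and 100% of changes of 2 units, with 4.41% false calls. The p-values measure the spread between these samples.

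Named were Ehmt1 and Ehmt2, the 20 largest rises and 12 largest falls among called genes whose groups did not overlap, up to 6 called members of each of 27 lists by smallest p, the 5 genes of smallest p in each difference between comparisons, and all genes of the first 2 kinds in every comparison; clone-named genes were counted only. Other list members are named as examples chosen after their values were seen. The comparisons and gene lists were chosen with earlier results of these data known. Alternatives were other filters, scalings, probe set rules, spread estimates, blocks and the omission of each array.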

Additional observations from a re-analysis of the deposited data

Results flagged for a closer look

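Among the named genes, 10 of 96 groups of 4 arrays held 1 array far from the other 3, by the share of the group's range taken up by the gap (past Dixon's critical value for 4 values); chance alone marks about 1 group in 20. Control 4 was the highest for Aldh3a1 (0.931) and the lowest for C1qtnf12 (0.974). Control 3 was the lowest for Ttn (0.905), Pgam2 (0.95) and Ces5a (0.86). Mutant 3 was the lowest for Kazald1 (0.861) and Crlf2 (0.924), and mutant 1 the highest for Reep6 (0.868). For Kdm3b, mutant 1 (0.854) and control 2 (0.892) were each the lowest of their group. In each of these genes the groups did not overlap.

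The test of the difference between comparisons marked further genes, given here as the log2 change in the GLP cortex minus the other. Against the G9a cortex these were Cap1 (-1.7) and Ehmt2 (1.65). Against the GLP hippocampus, Zranb3 (2.18), Gkn1 (2.61), Afp (2.82), Serpinb5 (2.63), Cabp5 (2.47) and Wfdc18 (2.05) were higher in cortex. Krt79 (-2.23), Krt2 (-1.5), C1qtnf12 (-0.966) and Ighm (-1.28) were lower. Against the GLP striatum, Gpr50 (3.44), Gabra6 (2.77), Hjv (2.26), Sln (2.01) and Gkn1 (1.8) were higher in cortex, and Ttn (-4.07), Corin (-3.43), Afp (-3.04), Cd2 (-2.93), Pdlim3 (-1.98) and Hacd2 (-1.06) were lower.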

How the results depend on the processing

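Of 48 named genes, 44 kept their direction and call in each alternative run that tested them and in each omission of an array. Not every gene was tested in each run: Gpr50, Sln, Gabra6, Serpinb5, Ttn, Cabp5 and Tdo2 had a value in 8 of 12 alternatives. Dazl lost its call without mutant 2, mutant 3, control 1 or control 2, Itga4 with the 8 GLP groups alone, with the replicate block and without mutant 2, control 2 or control 4, and Tdo2 with lower values raised to the array median. Kcna6 turned to -0.0142 with the mean of all its probe sets. The 179 cortical calls became 365 with only the compared groups in the fit, 79 with log2 above 2, 863 with array weights and 401 with the replicate block. They became 116 with a control mean above the array median, an alternative chosen after seeing the data. Other alternatives gave 144 to 220 and omissions of an array 144 to 179. Differences from the G9a cortex (2) became 7 with values set to the array median and 31 with array weights, and stayed at 2 in each omission. Differences from hippocampus (36) became 78 with the compared groups only, 58 with the GLP groups only, 63 with no filter, 11 with log2 above 2, 116 with values set to the median and 205 with array weights, and 23 to 57 in the omissions; the cause was not tested. Differences from striatum (23) became 45, 10, 69 and 60 with no filter, log2 above 2, values set to the median and array weights, and 18 to 32 in the omissions. Replicate numbers shared between groups were not taken as pairs, because not every correlation of same-numbered deviations exceeded 0.1 (0.25, 0.0599, 0.112 and 0.234) and 2 of 4 pairs matched best; these values do not exclude a pairing. The replicate block gave 401 cortical calls, 2 differences from the G9a cortex, 77 from hippocampus and 16 from striatum. With mouse number as a random block across regions these were 40 for hippocampus and 23 for striatum. Signal over background limits genes near the array median, and folds from a mean below it are bounds.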

Other observations

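Further groups were picked out after their values were seen, and some members were tested only through the mutants, where they were high, so their counts describe only these genes (1.32% of all tested genes rose and 0.224% fell). Of 15 listed enzymes of tryptophan breakdown and serotonin metabolism, 8 were tested and 4 rose. Beside Tdo2 (2.98), these were Tph2, the brain's serotonin-synthesis enzyme, at 1.79 (SE 0.38), Ido1, which carries out the same step as Tdo2, at 0.93 (SE 0.25) and Maob, a monoamine oxidase, at 0.66 (SE 0.13). Tph2 read 0.16, 1.08, 0.26 and 0.51 in mutants against -0.86, -1.74, -1.83 and -0.70 in controls, with no overlap. Ddc (0.45), Maoa (0.09), Kyat1 (-0.02) and Kyat3 (0.05) did not pass the test. Among Serpinb protease inhibitors, Serpinb5 (2.58), Serpinb1b (1.69), Serpinb1a (0.80) and Serpinb9 (0.59) rose, while Serpinb6a (0.07) and Serpinb6e (-0.08) did not pass.

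Of 17 listed leukocyte genes, 9 were tested and 7 rose; Cd6, Lcp2 and Ms4a6b had control means below the array median (-0.19, -0.48 and -0.77). Arhgap15, a Rac-inactivating protein, read 5.44, 5.35, 5.32 and 5.41 in mutants against 3.91, 4.35, 4.03 and 4.43 in controls (1.20, SE 0.29). Cd6 (1.21), Ms4a6b (1.42), Lcp2 (0.97), Skap1 (0.80) and Lsp1 (0.76) rose beside Bank1 (1.52), and the GTPase genes Gimap6 (1.40, from a control mean of -0.15) and Gimap8 (1.21) rose. Ptprc, the pan-leukocyte CD45, stood at -0.02 (SE 0.19) and Cd8a at -0.09 (SE 0.14). Of 9 listed mouse relatives of human pseudoautosomal genes, 5 were tested and 3 fell: Cd99 (-0.98), Crlf2 (-0.95) and Plcxd1 (-0.66). Csf2ra (-0.20) and Gtpbp6 (-0.18) did not pass the test.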
